A study of Homo sapiens with 3 samples.

Results

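The genes of the pyruvate dehydrogenase complex and of the enzymes that switch it on and off were followed across 3 arrays of the glioma clones U87WT and U87Mut. The set holds 10 genes of the 25006 that could be named and 17 of the 58201 probes. It was chosen by gene symbol, through the RefSeq transcript that the array design gives for each probe: the kinases PDK1, PDK2, PDK3 and PDK4, the phosphatase subunits PDP1 and PDP2, the regulator PDPR, the E1 subunits PDHA1 and PDHB, and DLAT, the E2 subunit. U87WT 5 is 1 clone of the human glioblastoma line U-87MG that stably carries GFP-tagged wild-type IGF1R, the receptor of insulin-like growth factor 1. U87Mut 5 is 1 clone of the same line that carries the GFP-tagged receptor with the mutations 1025x-1100x-1120x at its SUMOylation lysines and does not enter the nucleus. No parental sample was on the arrays. The cells were kept for 24 h in FBS-free medium, in IGF1 at 50 nM, or in IGF1 at 50 nM with OSI906. By the paper OSI906 inhibits both IGF1R and the insulin receptor. The dose of OSI906 is 0.5 μM by the paper and the sample title, and another label of that sample disagrees. U87WT RNA was labeled with Cy5 and U87Mut RNA with Cy3 on every array, without a dye swap, so the dye bias of a probe and a clone difference cannot be told apart. There was 1 array per condition, so the error given with a mean rests on the spread over 3 arrays that differ in treatment. It is the limma SE, in which the spread of a probe is moderated by that of all probes.

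Pyruvate dehydrogenase turns the pyruvate made by glycolysis into acetyl-CoA inside the mitochondrion, where it feeds the TCA cycle. E1, built of PDHA1 and PDHB, takes the carboxyl group off pyruvate, E2 passes the acetyl group to coenzyme A, and E3 regenerates the lipoyl arm of E2. The PDKs phosphorylate serines of PDHA1 and switch the complex off, the PDPs take the phosphate away, and PDPR holds the phosphatase PDP1 back. In tumors PDK1 is known as a target of the hypoxia factor HIF1, and PDK4 as a target of FOXO, PPAR and the glucocorticoid receptor. Arrays measure transcripts and say nothing of phosphorylation or of the activity of the complex.

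The scanner marked 5 to 572 of 62976 spots per array as not uniform, the 572 being on the IGF1 array, and no spot was saturated. Each probe of the set was printed once per array, and 0 of these spots were marked as outliers. The SD of 1 ratio, taken from the arrays in FBS-free medium and with OSI906, was 0.14 on the log2 scale. The pooled SD between spots of the same probe, over 283 probes with at least 10 spots, was 0.05 in FBS-free medium, 0.18 with IGF1 and 0.06 with OSI906, while the median SD per probe was 0.05 on each array. Before loess, the median log2 ratio of the 15347 genes with a brightest probe clearly over background in all 6 channels was 0.43 on the IGF1 array, 0.06 in FBS-free medium and 0.08 with OSI906, and loess takes this common shift out of every ratio below. The mesenchymal glioma markers VIM, CD44, FN1, TNC and NES were well above background on every array. Of the astrocyte and stem markers OLIG2 was, at a mean log2 signal of 6.10, while GFAP, S100B and SOX2 were not. Of markers of other cell types, RBFOX3 (neuron, 9.04), EPCAM (epithelial, 6.84), CD14 and PTPRC (leukocyte, 6.46 and 6.21) and CDH5 (endothelial, 6.10) were too. SYP, CDH1, CD3E and PECAM1 were not. Being above background therefore does not tell cell types apart here. IGF1R itself has 1 probe here, with log2 ratios of 0.07, 0.23 and 0.09 in FBS-free medium, with IGF1 and with OSI906, and where it lies on the transgene was not tested.

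Of the kinases, PDK1 was lower in U87WT and PDK2 and PDK3 were higher, in all 3 conditions. PDK1, the HIF1-induced kinase, gave median signals of 374 in U87WT and 584 in U87Mut in FBS-free medium, 476.5 and 492 with IGF1, and 303 and 406.5 with OSI906. After normalization its log2 ratio of U87WT over U87Mut was -0.51 in FBS-free medium, -0.53 with IGF1 and -0.44 with OSI906. The 3 ratios lay within a range of 0.08 and all stood more than 3 times the SD of 1 ratio below 0. Their mean was -0.49 with a limma SE of 0.04 (adjusted p = 0.00608, limma over 58201 probes), a level 1.41-fold higher in U87Mut. In bulk RNA of a clone, fewer expressing cells and less RNA per cell cannot be told apart. On the IGF1 array loess accounts for most of this value, since the ratio was -0.04 before it and the scanner's own processed signals gave -0.64.

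PDK2, the most widely expressed of the kinases, went the other way. The log2 ratios of its brightest probe were 0.50 in FBS-free medium, 0.58 with IGF1 and 0.38 with OSI906, with a mean of 0.48 ± 0.05 (limma SE, adjusted p = 0.0118). Its dimmer probe (mean log2 signal 7.72 against 9.27) had 0.30, 0.26 and 0.33 (adjusted p = 0.0160), so both probes were higher in U87WT on every array. The value with IGF1 was 0.07 when the background was fitted on all spots and 0.03 in the deposited ratios.

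PDK3, the kinase least sensitive to inhibition by pyruvate, had log2 ratios of 0.36, 0.34 and 0.49 by its brightest probe in the same order of conditions, with a mean of 0.39 ± 0.05 (limma SE, adjusted p = 0.0140). The dimmer probe (mean log2 signal 6.98 against 9.98) was near equal between the clones at 0.04, -0.04 and 0.09 (adjusted p = 0.761), and the probes, which are listed under different transcripts of the gene, disagree. The ratio of the brightest probe with IGF1 was -0.10 when the background was fitted on all spots.

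PDK4, which FOXO and PPAR factors induce when glucose is scarce, stayed at the background in these cells. Its median signal was 23 to 30 in the 6 channels over a local background of 20 to 22, and it was well above background only in U87WT with OSI906.

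**Figure D1:**
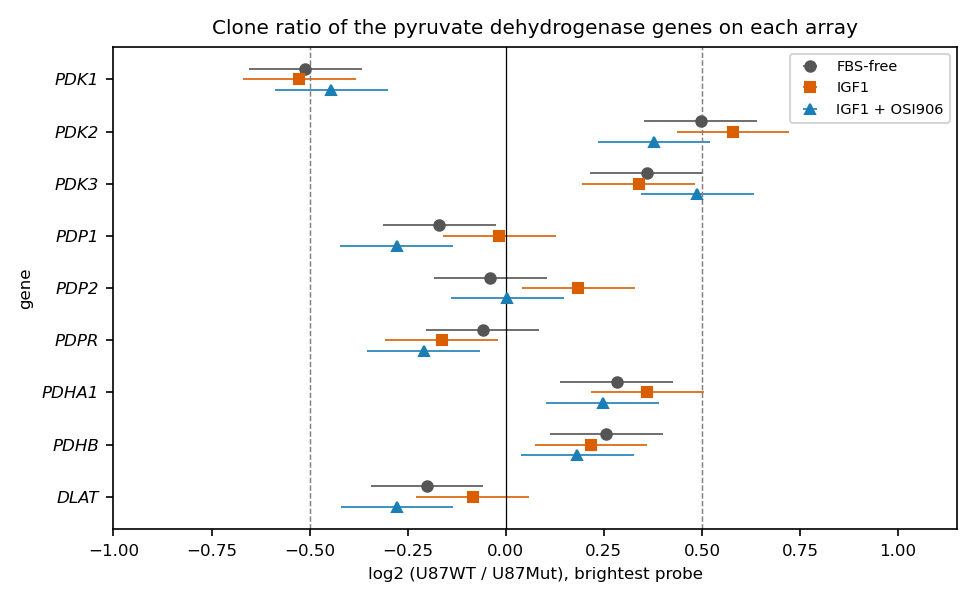
Log2 ratio of U87WT over U87Mut (x axis) for the 9 genes measured well above background (y axis), by the brightest probe, 1 point per array; whiskers are 1 SD of a single ratio (0.14) and dashed lines mark -0.5 and 0.5. PDK1 lies at -0.44 or below and PDK2, PDK3, PDHA1 and PDHB lie above 0 on all 3 arrays, where with the background fitted on all spots PDK3 (-0.10) and PDHB (-0.06) fall below 0 with IGF1.

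None of the phosphatase genes passed the test. PDP1, the calcium-stimulated phosphatase subunit, gave a log2 ratio of -0.17 in FBS-free medium, -0.02 with IGF1 and -0.28 with OSI906 (mean -0.15 ± 0.06, limma SE, adjusted p = 0.241). PDP2, the insulin-sensitive phosphatase subunit, has 4 probes, all listed under the same transcript. From the brightest to the dimmest their ratios were -0.04, -0.00, -0.30 and -0.15 in FBS-free medium. With IGF1 they were 0.19, 0.22, 0.18 and 0.14. With OSI906 they were 0.00, -0.18, -0.21 and -0.08. The ratio with IGF1 was therefore the highest of the 3 arrays for 4 of 4 probes, and all 4 probes were above 0 on that array. The SD of a difference between 2 ratios is 0.20, and the step from FBS-free medium to IGF1 was 0.22 for the brightest probe and 0.48 for the third. This SD comes from the arrays in FBS-free medium and with OSI906 and leaves out the spread of the IGF1 array. There the SD between spots of a probe was 0.18 pooled and 0.05 as a median, so 0.20 may be too small for these steps. None of the 4 probes passed the clone test (adjusted p = 0.634 to 0.950). When the background was fitted on all spots, 3 of 4 probes kept that order, with IGF1 ratios between -0.00 and 0.02. The brightest probe was then lowest with IGF1, at -0.19 against -0.05 in FBS-free medium. In the deposited ratios 2 of 4 probes kept the order, and the brightest was again lowest with IGF1, at -0.26.

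PDPR, which lowers the magnesium sensitivity of PDP1, has 3 probes under 1 transcript. The brightest gave a log2 ratio of -0.06 in FBS-free medium, -0.16 with IGF1 and -0.21 with OSI906 (mean -0.14 ± 0.04, limma SE, adjusted p = 0.153). The others, more than 2 log2 units dimmer, had 0.06, -0.37 and 0.16, and -0.04, -0.24 and 0.08. The dimmer probes were lowest with IGF1, and the brightest was lowest with OSI906. The ratios with IGF1 depend on the background fit for all 3 probes. From the brightest to the dimmest they were -0.45, -0.07 and -0.03 with the background fitted on all spots and -0.53, -0.08 and -0.03 in the deposited ratios, so under both settings the brightest probe was lowest with IGF1. The RefSeq annotation also holds PDPR2P, PDHA1P1, PDK1P1 and PDK1P2, pseudogenes of PDPR, PDHA1 and PDK1, and what the probes of these 3 genes share with them was not tested.

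**Figure D2:**
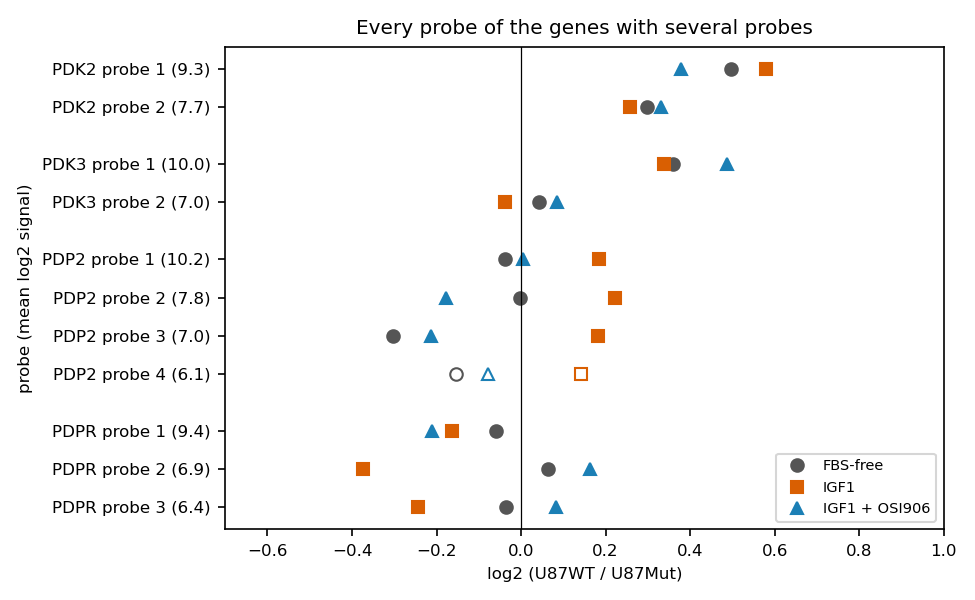
Log2 ratio of U87WT over U87Mut (x axis) for each probe of PDK2, PDK3, PDP2 and PDPR, from the brightest down with its mean log2 signal in brackets (y axis), 1 symbol per array; open symbols are a probe not well above background in every channel. The 4 probes of PDP2 lie above 0 with IGF1, where with the background fitted on all spots the brightest falls to -0.19. The probes of PDK3 and of PDPR disagree with each other.

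Both E1 subunits were higher in U87WT, and the E2 subunit was not called. PDHA1, the subunit that the kinases phosphorylate, gave a log2 ratio of 0.28 in FBS-free medium, 0.36 with IGF1 and 0.25 with OSI906 (mean 0.30 ± 0.04, limma SE, adjusted p = 0.0201). PDHB, its partner in the E1 tetramer, had 0.26, 0.22 and 0.18 (mean 0.22 ± 0.04, limma SE, adjusted p = 0.0335), and its value with IGF1 was -0.06 when the background was fitted on all spots. DLAT, which forms the core of the complex, had -0.20, -0.08 and -0.28 (mean -0.19 ± 0.05, limma SE, adjusted p = 0.110), below 0 on every array. As ratios of levels, the means are 1.23-fold for PDHA1, 1.16-fold for PDHB and 0.88-fold for DLAT.

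Counted over the 9 genes measured, the clone test called 4 higher in U87WT (PDHA1, PDHB, PDK2 and PDK3), against 11.0% of the 15347 genes, and 1 lower (PDK1), against 10.7% of these genes. By size, 1 of 9 genes lay below -0.5 in FBS-free medium, PDK1, where 6.12% of genes did, and 0 of 9 lay above 0.5, where 6.38% did. With IGF1, PDK2 was above 0.5 and PDK1 below -0.5, against 7.33% and 4.72% of genes. With OSI906, 0 of 9 lay above 0.5 and 0 of 9 below -0.5, against 5.75% and 5.66% of genes. The median ratio of the 9 genes was -0.04 in FBS-free medium, 0.19 with IGF1 and 0.00 with OSI906, beside medians of -0.01, 0.02 and -0.01 over the 15347 genes. By mean ratio PDK1 stood at percentile 4.29 of these genes and PDK2 at percentile 94.4. Without the array in FBS-free medium 0 of 9 genes were called and without the OSI906 array 0, where 6 and 5 genes had an unadjusted limma p under 0.05, and without the IGF1 array 4 were called, PDHB being lost. The share of all genes was not counted with an array left out. Of the other settings, 2 of 9 genes were called with the background fitted on all spots (PDHA1 and PDK1) and 1 in the deposited ratios (PDK1), while 0 were called with the scanner's processed signals or with median in place of loess. The mean ratio of PDK1 stayed between -0.57 and -0.46 in the 10 settings that use all 3 arrays, that of PDK2 between 0.31 and 0.57, and that of PDK3 between 0.21 and 0.46.

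The stretch upstream of the starts is shown for genes called by the clone test that have 1 start in the RefSeq promoter windows (PDHA1, PDHB and PDK3) and, in short, for PDK1, the HIF1 target of the set. The windows come from RefSeq on GRCh38.p14 and hold 250 bases before each start, and 9 of the 10 genes have at least 1. The 5-base core of the hypoxia response element, ACGTG or GCGTG on either strand, is in capitals; overlapping matches count separately, so CACGTG counts as a match on each strand. The PDK1 line gives the last 30 bases before its second start at chr2:172556060-172556089 (plus strand), a place where the window also lies inside PDK1-AS1 and the longer form of PDK1, and the others are at chrX:24465036-24465285 (plus strand, PDK3), chrX:19343677-19343926 (plus strand, PDHA1) and chr3:58433833-58434082 (minus strand, PDHB).
PDK1: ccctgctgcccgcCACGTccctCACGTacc
PDK3: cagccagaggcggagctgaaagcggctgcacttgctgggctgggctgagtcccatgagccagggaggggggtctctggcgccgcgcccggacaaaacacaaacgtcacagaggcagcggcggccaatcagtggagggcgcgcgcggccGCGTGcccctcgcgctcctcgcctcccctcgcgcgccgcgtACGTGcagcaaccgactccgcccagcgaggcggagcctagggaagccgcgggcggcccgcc
PDHA1: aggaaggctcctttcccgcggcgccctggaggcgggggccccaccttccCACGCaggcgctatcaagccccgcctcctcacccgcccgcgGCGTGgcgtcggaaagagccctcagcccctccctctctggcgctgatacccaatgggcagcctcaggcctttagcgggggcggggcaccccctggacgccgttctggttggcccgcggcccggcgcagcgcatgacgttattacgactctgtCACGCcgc
PDHB: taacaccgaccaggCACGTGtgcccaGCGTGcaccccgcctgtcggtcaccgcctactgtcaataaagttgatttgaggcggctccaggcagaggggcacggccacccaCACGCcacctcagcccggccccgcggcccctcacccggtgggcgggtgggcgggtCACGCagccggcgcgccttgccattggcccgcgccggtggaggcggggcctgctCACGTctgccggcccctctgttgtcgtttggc

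Matches numbered 0 and 2 before the 2 starts of PDK1, 2 for PDK3, 3 for PDHA1 and 6 for PDHB. Among the others, PDK2 had 0, 3 and 0 before its 3 starts, PDP2 had 3, PDPR had 0 and 3, DLAT had 3 and PDK4 had 0. Of the 35116 windows of all genes, 43.2% hold at least 1 match, so such letters are common and the genes that were lower and higher in U87WT both have them. Over the annotation PDK1 lies at chr2:172555373-172724312, PDK2 at chr17:50094737-50112152, PDK3 at chrX:24465286-24550466, PDHA1 at chrX:19343927-19361718 and PDHB at chr3:58427630-58433832. Where in these transcripts the probes lie is not given in the sources used here.

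The levels of each clone across conditions are differences between arrays, with 1 array each, so condition and array cannot be told apart and no test was made. PDK1 was higher with IGF1 than in FBS-free medium in both clones, by 0.23 in U87WT and 0.25 in U87Mut on the log2 scale. With OSI906 it was lower than with IGF1, with differences of -0.38 in U87WT and -0.46 in U87Mut, and also lower than in FBS-free medium (-0.15 and -0.22). Among the 15347 genes these steps put PDK1 at percentile 85.7 in U87WT and 94.1 in U87Mut for IGF1, and at 8.11 and 1.34 for OSI906 against IGF1. With median in place of loess, which left medians of 0.18 in U87WT and -0.19 in U87Mut over bright probes, the step to IGF1 was 0.55 in U87WT and -0.07 in U87Mut.

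PDK3 had the opposite course. With IGF1 against FBS-free medium its differences were -0.29 in U87WT and -0.27 in U87Mut, and with OSI906 against IGF1 they were 0.42 and 0.27. The dimmer probe of PDK3 was also lower with IGF1, at -0.31 and -0.23, with steps of 0.15 and 0.02 to OSI906. With median in place of loess the step of the brightest probe to IGF1 was 0.05 in U87WT and -0.61 in U87Mut. PDK2 had -0.10 in U87WT and -0.19 in U87Mut for IGF1, and 0.05 and 0.26 for OSI906 against IGF1. With the background fitted on all spots these were -0.43 and -0.02, and 0.39 and 0.09.

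In U87Mut PDP1 had a response past 0.5 to OSI906. Its level with OSI906 was 0.53 above that with IGF1, a 1.44-fold difference, and in U87WT it was 0.27 above it. Against FBS-free medium the level with OSI906 was 0.41 higher in U87Mut, percentile 98.8 of the 15347 genes, and 0.30 higher in U87WT, percentile 92.1. With IGF1 against FBS-free medium it differed by 0.03 in U87WT and -0.12 in U87Mut. With the background fitted on all spots the step from IGF1 to OSI906 was 0.52 for PDP1 in U87Mut, beside -0.55 for PDK1 in U87Mut and 0.65 for PDK3 in U87WT. PDPR, the partner of PDP1, lay between -0.06 and 0.09 of its level in FBS-free medium in both clones by its brightest probe, while with that fit its IGF1 values were -0.14 in U87WT and 0.23 in U87Mut.

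PDHB was highest in FBS-free medium. Against that level it differed by -0.27 in U87WT and -0.23 in U87Mut with IGF1, and by -0.43 and -0.36 with OSI906. With median in place of loess the IGF1 values were 0.10 and -0.59. The pair with OSI906 lay at percentiles 3.67 and 2.43 of the 15347 genes. PDHA1, which is needed in equal number with PDHB in E1, had differences between -0.10 and 0.01 in all of these steps. DLAT differed by -0.21 and -0.33 with IGF1 against FBS-free medium, and by -0.03 and 0.17 with OSI906 against IGF1.

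**Figure D3:**
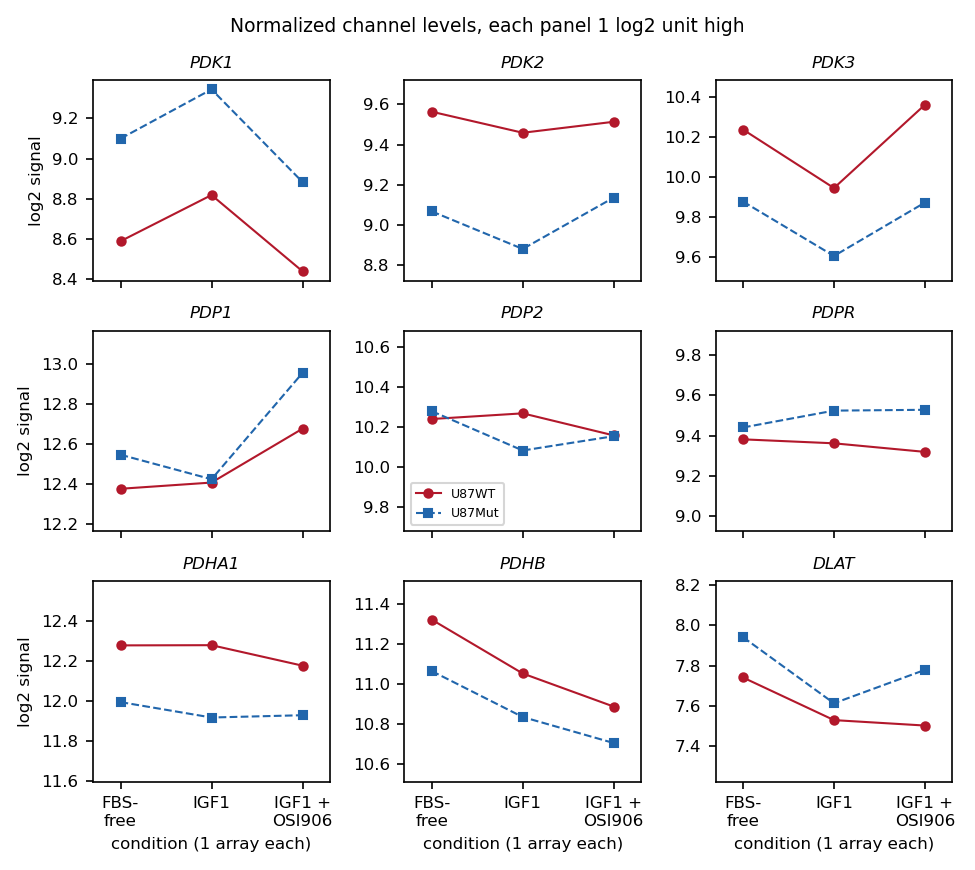
Normalized log2 signal (y axis, each panel 1 log2 unit high) in FBS-free medium, IGF1 and IGF1 with OSI906 (x axis, 1 array each) for U87WT (circles, solid line) and U87Mut (squares, dashed line), by the brightest probe of each gene. After loess PDK1 is highest with IGF1 and PDK3 lowest with IGF1 in both clones, PDP1 is highest with OSI906, and PDHB is lower at each step.

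For IGF1 against FBS-free medium, 0 of 9 genes passed 0.5 in either direction in U87WT, where 4.83% of genes did, and 0 of 9 in U87Mut, where 2.53% did. For OSI906 against IGF1 the count was 0 of 9 in U87WT, against 7.40% of genes, and 1 of 9 in U87Mut, PDP1, against 3.05%. For OSI906 against FBS-free medium it was 0 of 9 in each clone, against 4.71% in U87WT and 1.45% in U87Mut. The median response of the set to IGF1 was -0.02 in U87WT and -0.19 in U87Mut, beside 0.01 and -0.03 for all genes. Both clones share each array and the contrasts share the IGF1 array, so the values stand side by side and were not correlated.

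**Figure D4:**
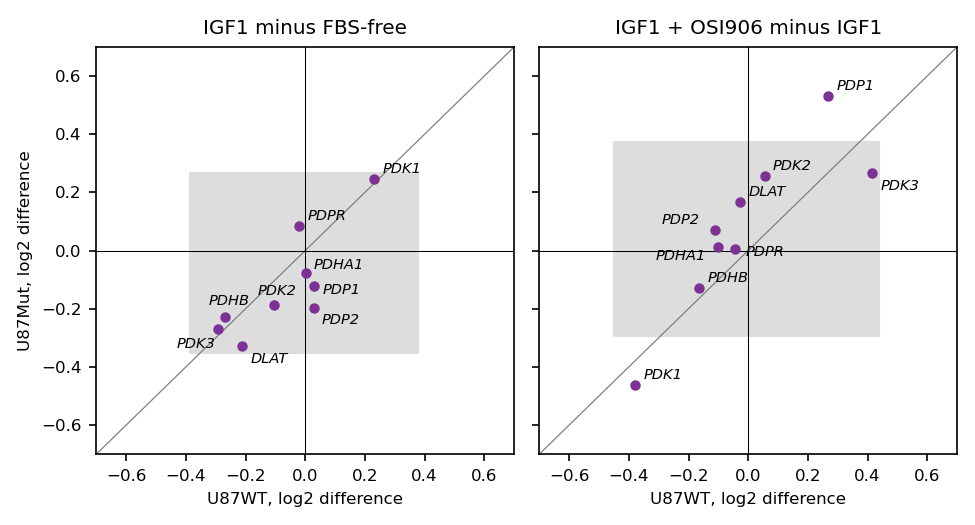
Log2 difference between arrays in U87WT (x axis) and U87Mut (y axis) for the 9 genes, for IGF1 against FBS-free medium (left) and OSI906 with IGF1 against IGF1 (right); the grey box spans the 5th to 95th percentiles of the 15347 genes in each clone and the line marks equal values. PDP1 in U87Mut (0.53) lies beyond 0.5, and PDK1 in U87Mut (-0.46) is the lowest.

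Among the other genes of the complex and of pyruvate entry, 12 of 13 listed were measured. The clone test called 0 of these higher in U87WT, against 11.0% of the 15347 genes. At an unadjusted p under 0.05 the same limma test counted 3 higher, MPC1, PC and SIRT4, and 1 lower. The share of all genes at this looser threshold was not counted, and the 11.0% does not apply to it. PC, pyruvate carboxylase, which competes for the same pyruvate, had 0.16 in FBS-free medium, 0.64 with IGF1 and 0.50 with OSI906 and was not called (adjusted p = 0.0782). DLD, the E3 subunit, had 0.25, -0.09 and -0.02, and PDHX, the E3-binding protein, had -0.03, 0.09 and -0.25. The mitochondrial pyruvate carrier subunits had 0.24, 0.11 and 0.06 for MPC1 and -0.23, 0.32 and 0.04 for MPC2. The median of the 12 genes was 0.15, 0.08 and 0.01 in the same order.

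Of 7 genes of the sister 2-oxoacid dehydrogenases with their kinase and phosphatase, 7 were measured, 2 were called higher in U87WT, against 11.0% of the 15347 genes, and 0 lower, against 10.7%, with 0 lower also at an unadjusted p under 0.05 by limma. PPM1K, the phosphatase of the branched-chain complex, had 0.60, 0.62 and 0.82 (adjusted p = 0.00795), and BCKDHB, a subunit of its E1, had 0.31, 0.29 and 0.29 (adjusted p = 0.0135). BCKDK, the kinase of that complex, had -0.01, -0.07 and 0.05.

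PDK1 was also set beside 20 genes known to be induced with it by HIF1, of which 18 were measured. The clone test called 4 lower in U87WT, namely ANKRD37, BNIP3, LDHA and NDRG1, against 10.7% of the 15347 genes, and 1 higher, PFKFB3, against 11.0%. NDRG1, a stress-induced gene, had -1.26 in FBS-free medium, -1.64 with IGF1 and -0.89 with OSI906 (adjusted p = 0.0147). LDHA, which turns pyruvate into lactate and so competes with the complex, had -0.38, -0.32 and -0.40 (adjusted p = 0.0107), with an SD over the arrays of 0.04, as for PDK1. BNIP3, a mitophagy receptor, had -0.30, -0.40 and -0.26 (adjusted p = 0.0201), and ANKRD37 had -0.73, -0.91 and -0.60 (adjusted p = 0.00862). PFKFB3, which makes the activator of phosphofructokinase, had 0.23, 0.41 and 0.38 (adjusted p = 0.0248). VEGFA, the angiogenic factor, had -1.13, -1.36 and -0.05 and was not called (adjusted p = 0.164), and ADM and MXI1 passed 0.5 with OSI906 at 1.09 and 0.67. The median of the 18 genes was -0.06, -0.11 and -0.09, beside -0.01, 0.02 and -0.01 for all genes.

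**Figure D5:**
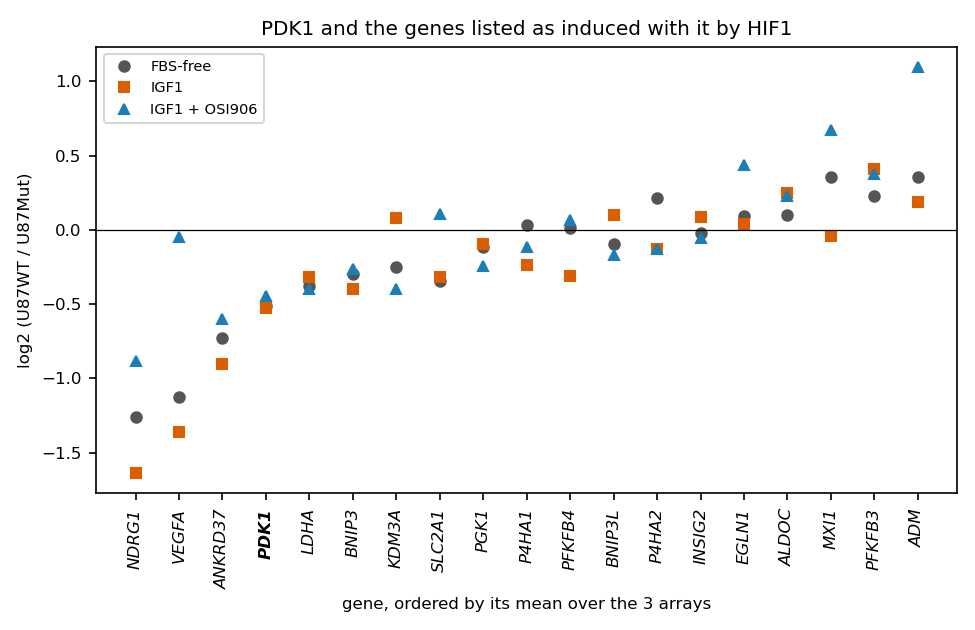
Log2 ratio of U87WT over U87Mut (y axis) on each array for PDK1 and the 18 measured genes listed as induced with it by HIF1 (x axis, ordered by mean ratio). PDK1 (-0.51, -0.53 and -0.44) is the fourth from the left, and VEGFA (-1.13, -1.36 and -0.05) and ADM (0.35, 0.18 and 1.09) lie highest with OSI906.

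Of 12 genes known to be induced together with PDK4 by FOXO, PPAR or the glucocorticoid receptor, 10 were measured. The clone test called 1 of these 10 higher in U87WT and 1 lower, near the shares of 11.0% and 10.7% of the 15347 genes. BCL6, a FOXO-induced repressor, was called higher in U87WT at 0.76, 0.96 and 0.61 (limma, adjusted p = 0.00976). ANGPTL4, a PPAR-induced inhibitor of lipoprotein lipase, was called lower at -0.50, -0.60 and -0.73 (limma, adjusted p = 0.00839).

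By Euclidean distance over the 6 centred channel levels, among 15347 genes, the 5 genes nearest to PDK1 were ATF7 (0.13), LYSMD4 (0.13), ESYT1 (0.14), HDHD5 (0.15) and MAGOHB (0.15). Each was lower in U87WT on every array, from -0.38 to -0.63, and higher with IGF1 than in FBS-free medium in both clones. Among the nearest to PDPR were FAAP24, IFIT5, ACVR2A and CFP, at distances of 0.04 to 0.05, with ratios between -0.21 and -0.03. For both genes the likeness in ratios and steps follows from choosing the neighbors by these same levels, and is no separate result.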

How the data were processed

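RNA of U87WT (Cy5) and U87Mut (Cy3) was hybridized to 3 Agilent 2-color arrays, 1 per condition. The intensity values were deposited as Agilent Feature Extraction 12.0.3.1 gave them: spot medians and medians of the local background, not normalized, with marks for outliers. The same files hold, per the file headers, processed intensity values corrected for background and dye and their log10 ratio. The authors also deposited log2 ratios per probe, background-corrected and normalized with limma per their Methods, which do not name the kinds; their column medians were -0.01, -0.01 and -0.00 and they correlated at 0.99, 0.60 and 0.97 with the ratios used here for FBS-free medium, IGF1 and OSI906.

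Values were computed with limma 3.58.1 (R 4.3.3). Background correction used normexp (offset of 50), fitted without the spots marked as not uniform (384, 572 and 5) and applied to all. On the IGF1 array the fitted background SD of Cy5 was 1.32, against 701 with all spots. Then 2075 control spots were removed, ratios were normalized by loess within and Aquantile between arrays, outlier spots (95, 117 and 95) were dropped, and repeated spots were averaged to 58201 probes. RefSeq transcripts named 34892 of 36770 probes (GRCh38.p14). Each gene is represented by its brightest probe, and all probes of the 10 genes are given. Levels of a clone are single-channel values after these steps.

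The clone difference was tested with limma (eBayes on an intercept over all 3 arrays, Benjamini-Hochberg at 5% over 58201 probes). Only this test and the background fit were also run on simulated data. Ratios and responses were described against a limit of 0.5 on the log2 scale. Named genes are all 10 members, genes of the other lists past that limit or called, others of these lists that act on pyruvate or on the complex, singled out after their values were seen, and the 5 nearest to PDK1 and PDPR. Some genes that this rule names are not reported here. The members and lists were chosen with earlier results of these data known. Other background corrections, normalizations, limits, probe rules and the leaving out of each array were tried. Precision is limited by the number of arrays, and the p-values rest only on the spread between these arrays, moderated by limma over all probes.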

Additional observations from a re-analysis of the deposited data

Results flagged for a closer look

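The probes of PDP2 and PDPR named here had responses of opposite sign in the 2 clones, by more than the SD of a difference between ratios (0.20). That SD comes from the arrays in FBS-free medium and with OSI906 and may be too small for steps that use the IGF1 array. With 1 array per condition the difference between the clones was not tested. For IGF1 against FBS-free medium, the response of U87WT minus that of U87Mut was 0.22 for the brightest probe of PDP2 (0.03 and -0.20) and 0.48 for a dimmer probe (0.20 and -0.28). It was -0.44 for the second probe of PDPR (-0.25 and 0.19) and -0.21 for the dimmest (-0.17 and 0.03). For OSI906 against IGF1 it was -0.39 for that dimmer probe of PDP2 (-0.34 and 0.05) and -0.40 for another (-0.04 and 0.36), and 0.54 for the second probe of PDPR (0.49 and -0.05) and 0.33 for the dimmest (0.26 and -0.07). With the background fitted on all spots the 4 differences for IGF1 against FBS-free medium were, in the same order, -0.14, 0.31, -0.13 and 0.01, and those for OSI906 against IGF1 were -0.23, -0.17, 0.23 and 0.11. All of these differences use the IGF1 array, on which the pooled SD between spots of a probe was 0.18; the part of that array in them was not tested.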

How the results depend on the processing

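The count of 5 genes called by the clone test was 2 with the background fitted on all spots, 3 without background correction, 1 in the deposited ratios, and 0 with the scanner's processed signals or with median in place of loess, where 6 and 3 of 9 genes had an unadjusted limma p under 0.05. Leaving out 1 array gave 0 to 4. The count past 0.5 in FBS-free medium (1) was 2 with an offset of 20, no background correction, processed signals, scale normalization or the deposited ratios, and with IGF1 (2) it was 1 with the fit on all spots or the mean of all probes, and 6 with median. With OSI906 (0) it was 1 with an offset of 20, no correction, processed signals, median or the deposited ratios. A limit of 1 gave 0 on every array and in every response. A limit of 0.5 SD of each array gave 7, 7 and 8. That limit is only 0.11, 0.12 and 0.11, as the SD is over all probes. Over the 15347 genes the ratios had SDs of 0.36, 0.35 and 0.34. The shares of all genes were counted in the main setting only. The counts under other settings in this paragraph therefore have no share beside them and are not read as a result about the set. The response to IGF1 counted 1 in U87WT (main 0) with the fit on all spots or median, and 6 in U87Mut (main 0) with median. OSI906 against IGF1 counted 1 in U87WT (main 0) with the fit on all spots or median, and 2 in U87Mut (main 1) with that fit, an offset of 20, no correction or quantile normalization. OSI906 against FBS-free medium counted 1 in each clone with median. The mean ratio of the 5 called genes kept its sign in every setting tried. Of the values of single genes, 179 of the clone ratios and 306 of the responses stayed within the SD of 1 ratio and 37 and 72 did not, most of them with median, which left medians of -0.13, 0.20 and 0.05 over bright probes on the 3 arrays. Dim probes and PDK4 are limited by signal over background. Both clones share each array, so the clone test is a test of paired values, and with 1 array per condition no further replicate block could be fitted.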
